A study of Homo sapiens with 4 samples.

Results

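Ribosome footprints were compared in HEK293, a human line grown from embryonic kidney, between a library labelled RPL4 mutant and a library labelled wild type, both from cells given erythromycin. Footprints are the stretches of mRNA that a ribosome covers and protects from nuclease, so their number on a transcript follows both the amount of that mRNA and how densely ribosomes sit on it, which cannot be told apart here. The comparison takes 2 of the 4 libraries of the study and covers the 15541 transcripts listed in at least 1 of them, with an absent transcript read as 0. The other 2 libraries, wild type and RPL4 mutant without erythromycin, form a separate pair and serve here as a second look at the same genotype difference. Each group had 1 library, so the values below carry counting error only and no replicate check. The growth and treatment protocol is shared by all 4 libraries and describes stable HEK293 lines making GFP, wild type L4 or a Δloop form of L4, infected with lentivirus carrying either a scrambled hairpin or one directed at RPL4. The labels do not say which line and which hairpin each library had, whether a line was 1 clone, or the dose and duration of erythromycin. Cycloheximide and LTM, which hold elongating and initiating ribosomes in place, both appear in the protocol without being tied to single libraries.

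RPL4 (uL4) is a protein of the large ribosomal subunit. A loop of it reaches into the peptide exit tunnel, the channel through which each new protein chain leaves the ribosome, and forms part of the tunnel's narrowest stretch. Erythromycin is a macrolide antibiotic that binds this tunnel in bacterial ribosomes and halts certain nascent chains. Ribosomes of mitochondria descend from bacterial ones and make a small set of respiratory chain subunits, while cytosolic ribosomes make all other proteins. Cytosolic ribosomes are far less sensitive to macrolides than bacterial ones. The sensitivity of the mitochondrial ribosomes to erythromycin was not measured here.

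Depth differed between the libraries. The wild type library with erythromycin held 2555613 reads and the mutant one 993461, recovered from the deposited values, and the pair without erythromycin held 2965243 and 604506. A gene was analysed when its mean over the 4 libraries was at least 5 RPKM, which left 9612 genes with a median of 91 reads in wild type and 40 in the mutant with erythromycin. In the mutant with erythromycin, 2259 of these genes had under 20 reads, against 744 in wild type. Each difference is a log2 ratio of RPKM + 1, mutant over wild type, less 0.06, the median of all 9612 genes, so that 0 stands for the median gene. Where 2 RPKM values stand together they are wild type and then mutant, with erythromycin unless stated, and a signed number after them is the log2 ratio. Brackets hold exact 95% counting intervals of the ratio of reads, centred alike and without the added 1 RPKM. Of 8 HEK293 marker genes, 8 had reads in both libraries, with a summed level of 1939 RPKM in wild type and 1168 in the mutant. Most of that sum came from VIM, KRT8 and KRT18, while NEFM had only 1 and 2 reads and PAX2 only 6 and 2. VIM (vimentin) was at 1100.4 and 637 RPKM in wild type and mutant, and KRT8 (keratin 8) at 428 and 232 RPKM. NEFL (51.31 and 53.04 RPKM) and CDH2 (27.18 and 30.33 RPKM) were not lower in the mutant. Of the 6 markers that passed the filter, 5 had a log2 ratio below 0 and 1 above it. Marker sums of other cells were between 1.19 and 7.21 RPKM in either library for blood, liver, fibroblast and muscle, with 4 of 6 blood markers at 0 in each. In cultures sequenced whole, fewer cells of a kind and fewer footprints per cell cannot be told apart.

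More genes were far higher in the mutant than far lower. Of the 9612 genes, the mutant with erythromycin was 2-fold or more above wild type in 675 (7.02%) and 2-fold or more below it in 217 (2.26%). The 675 genes were mostly thinly read in wild type, with a median of 5.95 RPKM there against 19.4 in the mutant, and together they took 2.55% of wild type reads and 11.5% of mutant reads. The 217 lower genes had medians of 17.5 and 6.43 RPKM, the latter from a median of 7 reads. For 243 of the higher and 13 of the lower genes, the counting interval lay wholly beyond 2-fold. These 2 counts do not compare the sides evenly. The higher genes had a median of 36 mutant reads against 7 for the lower ones, and intervals on few reads are wide. Comparing each gene only with genes of like mean RPKM moved the split from 675 against 217 to 527 against 278, and matching on GC content as well moved it to 474 against 280. Among the 945 best read genes, whose mean reached 200 RPKM in the erythromycin pair, differences of 1.5-fold or more were mostly on the lower side. There 135 genes (14.3%) were lower by that much and 62 (6.56%) higher, while 13 (1.38%) and 42 (4.44%) passed 2-fold.

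**Figure D1:**
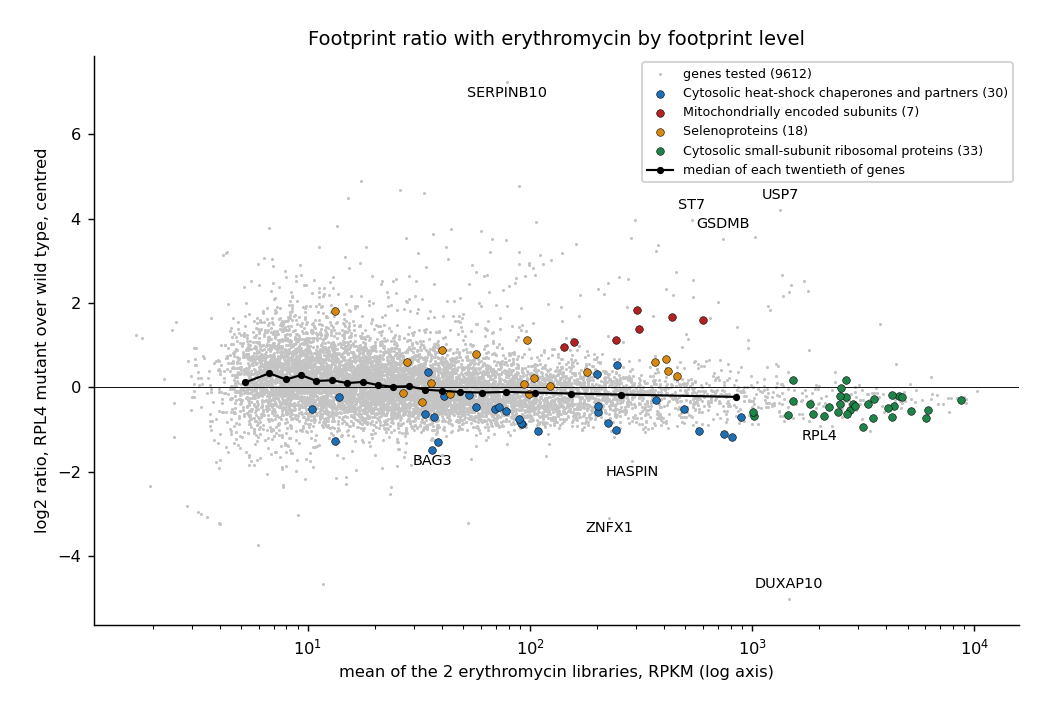
Log2 ratio of mutant over wild type with erythromycin (vertical axis) against the mean RPKM of the 2 libraries (log axis), with 1 point for each of 9612 genes, 4 gene lists in colour and a black line through the medians of 20 equal groups of genes. Heat-shock genes (blue) and small-subunit ribosomal proteins (green) lie mostly below 0 and the 7 mitochondrially encoded genes (red) all lie above it; the height of SERPINB10, which had 0 reads in wild type, depends on the added 1 RPKM.

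RPL4 itself was read less in the mutant. RPL4 (chromosome 15, 66498015 to 66524532 for the gene in GRCh38, minus strand) was at 2515 and 2586 RPKM in wild type without and with erythromycin, and at 1707 and 1439 in the mutant. Both mutant libraries lay below both wild type libraries. With erythromycin this was 8486 and 1836 reads and a log2 ratio of −0.91 [−0.98, −0.83]. The files give 1 value per transcript, so footprints from a transgene copy, from an endogenous copy and from a copy with the loop removed would be summed, and the value checks the genotype label only in part.

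The rest of the ribosome's protein genes were lower too, by less. Of 44 tested large-subunit proteins other than RPL4, 43 were below 0, where 50% of all genes lie, with a median log2 ratio of −0.37 and quartiles of −0.49 and −0.27. Of these 44, 9 were at least 1.5-fold lower, a size reached by 11.3% of all genes tested, and 0 were 1.5-fold higher, against 16.8%. Small-subunit proteins had a median of −0.45, with 31 of 33 below 0, 11 at least 1.5-fold lower and 0 higher. The large-subunit list ran from RPL36A (77.5 and 39.9 RPKM) to RPL12 (1296 and 1431 RPKM, 0.08). Its most read members were RPL37A (9463 and 8421 RPKM, −0.23), RPL36 (8866 and 7758 RPKM, −0.25) and RPL38 (9103 and 6323 RPKM, −0.59). In the small subunit, RACK1, a scaffold protein on the subunit's head, was lowest (4082 and 2222 RPKM, −0.94), and RPS2 highest (1397 and 1648 RPKM, 0.18). RPS15 was at 9393 and 8015 RPKM and RPS4X at 7452 and 4695 RPKM, log2 ratios of −0.29 and −0.73. Together the 33 small-subunit genes took 6.25% of wild type and 4.72% of mutant reads. The 45 large-subunit genes with a listed transcript, of which 44 were tested, took 8.01% and 6.59%. Heavily read genes were lower in general, and set against genes of like mean RPKM the medians were −0.13 for the large and −0.21 for the small subunit, with RPL4 at −0.67 on that scale. Many ribosomal protein genes have near-identical processed copies, and how reads were divided among such copies is not given in the sources used here.

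Most ribosomal protein mRNAs are known to begin with a C followed by a run of pyrimidines, the terminal oligopyrimidine tract, through which growth signalling controls their translation. The starts are shown because such a tract is the sequence feature that these genes share. Runs of C and T that begin with C and hold at least 8 bases were sought in the 30 bases from 10 before to 20 after the RefSeq start (GRCh38.p14) nearest the deposited transcript's 5′ end. They were present in 25 of 35 matched large-subunit genes (71.4%) and 20 of 26 small-subunit genes (76.9%), against 10.3% of 7935 tested genes and 9.69% of 35116 RefSeq starts. The longest run is in capitals. RPL4 and 5 well read proteins are shown, 1 of them without a run of 8, and RPS18 and RPL13A were picked after their values were seen. The windows lie at chr15:66504836-66504865 (minus strand) for RPL4, chr17:74203668-74203697 (plus strand) for RPL38, chr19:41860245-41860274 (plus strand) for RPS19, chr6:33272065-33272094 (plus strand) for RPS18, chr19:49487598-49487627 (plus strand) for RPL13A and chrX:72277229-72277258 (minus strand) for RPS4X.
RPL4: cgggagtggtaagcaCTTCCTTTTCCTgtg
RPL38: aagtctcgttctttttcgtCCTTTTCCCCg
RPS19: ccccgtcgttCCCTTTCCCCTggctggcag
RPS18: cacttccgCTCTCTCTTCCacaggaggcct
RPL13A: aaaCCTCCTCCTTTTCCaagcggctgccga
RPS4X: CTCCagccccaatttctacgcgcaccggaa
The log2 ratios with erythromycin were −0.91, −0.59, −0.53, −0.55, −0.05 and −0.73 in the same order, so the 5 starts with a run went with ratios from −0.91 to −0.05. With ribosomal proteins left out, 773 genes with such a run had a median log2 ratio of 0.01 and 7102 genes without one a median of 0.00.

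Other parts of the translation machinery were mostly on the same side, and less so against genes of like RPKM. Initiation factors (37 tested) had a median of −0.36, or −0.20 so matched, with 33 below 0, 8 at least 1.5-fold lower and 0 higher. EIF4A1, the helicase that unwinds mRNA leaders, was at 2854 and 2248 RPKM, −0.41, and EIF3D, a cap-binding subunit of eIF3, was the lowest of the list with 227 and 123 RPKM, −0.93. EIF1, which guards start codon choice, was at 1378 and 1095 RPKM, −0.39, and DENR, which recycles small subunits, was the highest (214 and 248 RPKM, 0.15). Of 10 genes listed by symbol under elongation and termination factors, 8 were below 0, with a median of −0.38 and a matched one of −0.15. EEF1A1, which delivers aminoacyl-tRNA and was the most read gene in both libraries, was at 8024 and 6355 RPKM, −0.40. EEF2, the translocase, was at 1624 and 1056 RPKM, −0.68, and GSPT1, the release factor eRF3a, at 97.3 and 58.4 RPKM, −0.79. EEF1G (60.2 and 88.1 RPKM, 0.48) and EEF1E1, counted here by its symbol alone (58.1 and 90.1 RPKM, 0.56), lay on the other side. Of the 22 cytosolic aminoacyl-tRNA synthetases and their scaffold proteins, which charge tRNAs, 20 were below 0 and 9 at least 1.5-fold lower, with a median of −0.48 and a matched one of −0.34. RARS, which charges arginine tRNA, was lowest (92.7 and 44.7 RPKM, −1.10) and MARS, which charges methionine tRNA, highest (37.5 and 54.0 RPKM, 0.45). Ribosome biogenesis factors (75 tested) had a median of −0.39 and a matched one of −0.26, with 60 below 0 and 20 at least 1.5-fold lower. Among them NPM1, an abundant nucleolar chaperone, was at 2931 and 1624 RPKM, −0.91 and the RNA helicase DDX18 at 110.2 and 52.5 RPKM, −1.12, while FBL, the methyltransferase of rRNA, was at 864 and 785 RPKM, −0.20. Factors of ribosome rescue, quality control and nonsense-mediated decay did not move as a block, with 18 of 31 below 0 and a median of −0.10. There ABCE1, which splits ribosomes for recycling, was lowest (77.6 and 36.3 RPKM, −1.14) and RNF10, a ubiquitin ligase of stalled small subunits, highest (24.4 and 50.5 RPKM, 0.96). EDF1, which senses collided ribosomes, was at 1252 and 1216 RPKM, −0.10 and RBM8A of the exon junction complex at 696 and 612 RPKM, −0.25.

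**Figure D2:**
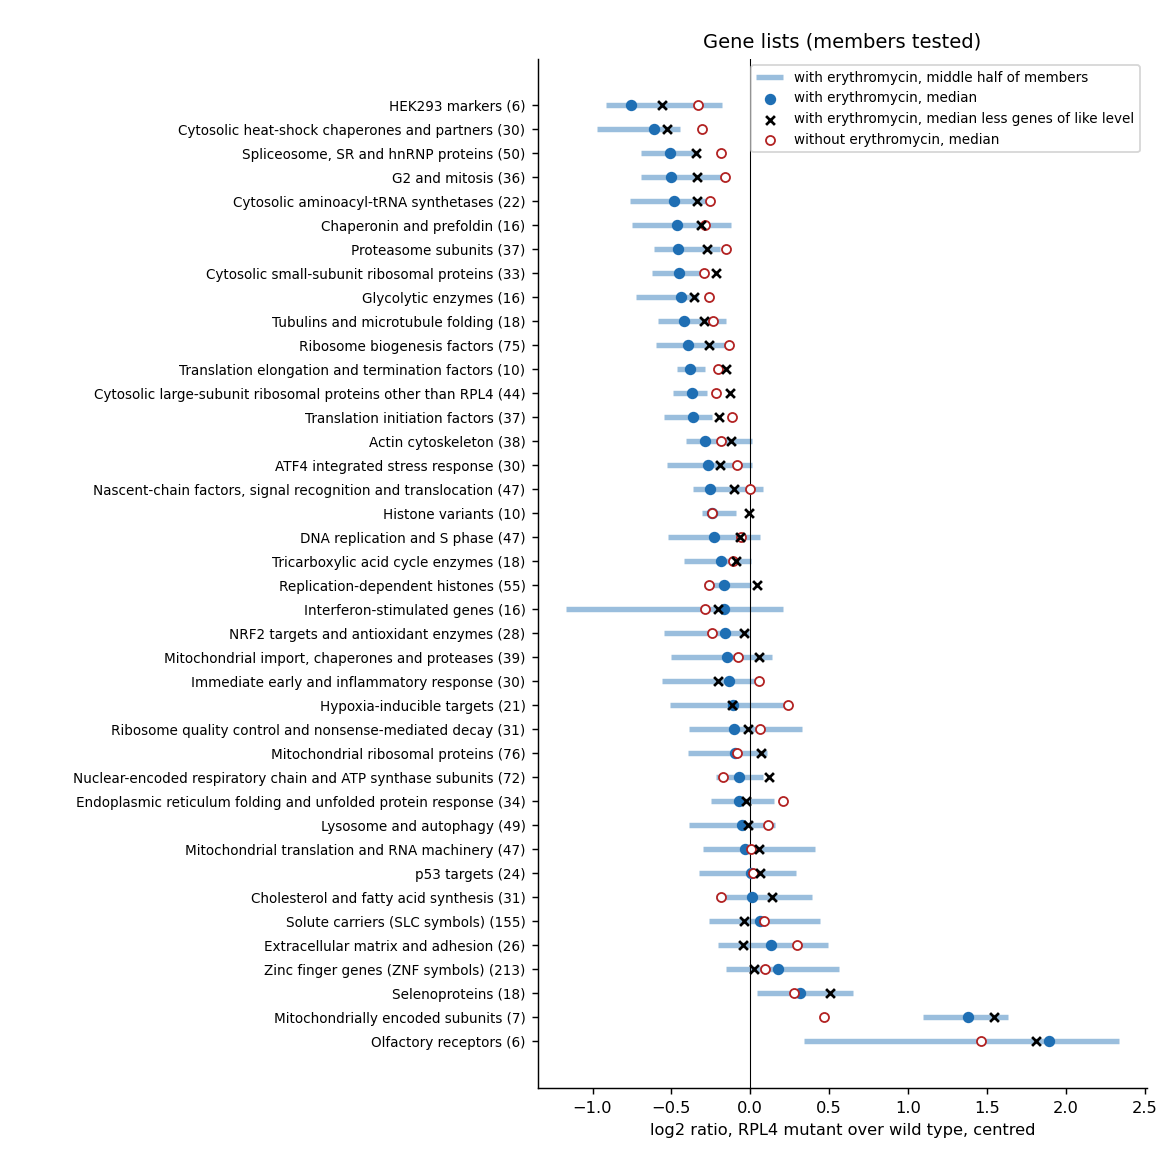
Median log2 ratio of mutant over wild type for each gene list with at least 5 tested members: with erythromycin (blue points, bars from the lower to the upper quartile of members), with erythromycin after subtracting the median of genes of like mean RPKM (crosses) and without erythromycin (open circles). Heat-shock genes had a median of −0.61 with the drug and −0.31 without it, and mitochondrially encoded genes 1.38 and 0.47.

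Cytosolic chaperones had the lowest median of the gene lists, markers of the line left aside. Heat-shock proteins and their partners hold new or damaged proteins until they fold. The transcription factor HSF1 drives many of their genes when unfolded protein builds up. Of 30 tested members 27 were below 0, 16 were at least 1.5-fold lower, 8 at least 2-fold lower, and 0 were 1.5-fold higher, with a median of −0.61. Without erythromycin 6 of the 30 were at least 1.5-fold lower, where 10.4% of all genes were, and 1 was as much higher, against 13.3%. HSPA8, the constitutive HSP70, was at 825 RPKM in wild type and 536 in the mutant without erythromycin, and at 1114 and 510.3 with it, a log2 ratio of −1.19 [−1.29, −1.09] with the drug and −0.60 [−0.72, −0.48] without. HSP90AB1, the constitutive HSP90, stood at 759 and 509 RPKM without and at 1006 and 484 with erythromycin, −1.12 [−1.21, −1.02] and −0.55 [−0.67, −0.43] with and without the drug. For both genes the wild type library with erythromycin was the highest of the 4 and the mutant one with erythromycin the lowest. PTGES3, the HSP90 co-chaperone p23, read 884 and 1013 RPKM without and 1079.8 and 697 with the drug, so its log2 ratio was 0.22 in one pair and −0.69 in the other. BAG3, a nucleotide exchange factor that steers clients to autophagy, was the lowest member with 52.7 and 17.2 RPKM without and 53.2 and 19.2 with erythromycin, −1.49, and differed by as much without it (−1.53). Other low members, named after their values were seen, were HSPH1 (54.2 and 22.6 RPKM, −1.29), an HSP110 exchange factor, HSPA4 (144 and 72.6 RPKM, −1.04) of the same family, HSP90AA1 (762 and 389 RPKM, −1.03), the inducible HSP90, and DNAJA1 (319.5 and 166 RPKM), a J-domain partner of HSP70. The 3 members above 0, named for that reason, were HSPB1, a small heat-shock protein (196 and 298 RPKM, 0.54), HSF1 itself (29.3 and 39.9 RPKM, 0.37) and STUB1, a ubiquitin ligase bound to HSP70 (173 and 225 RPKM, 0.31). The inducible HSP70 genes HSPA1A and HSPA1B, at −0.70 and −0.55, are near-identical copies and their split is uncertain. Against genes of like mean RPKM the list's median was −0.53, and with GC content matched too it was −0.48.

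**Figure D3:**
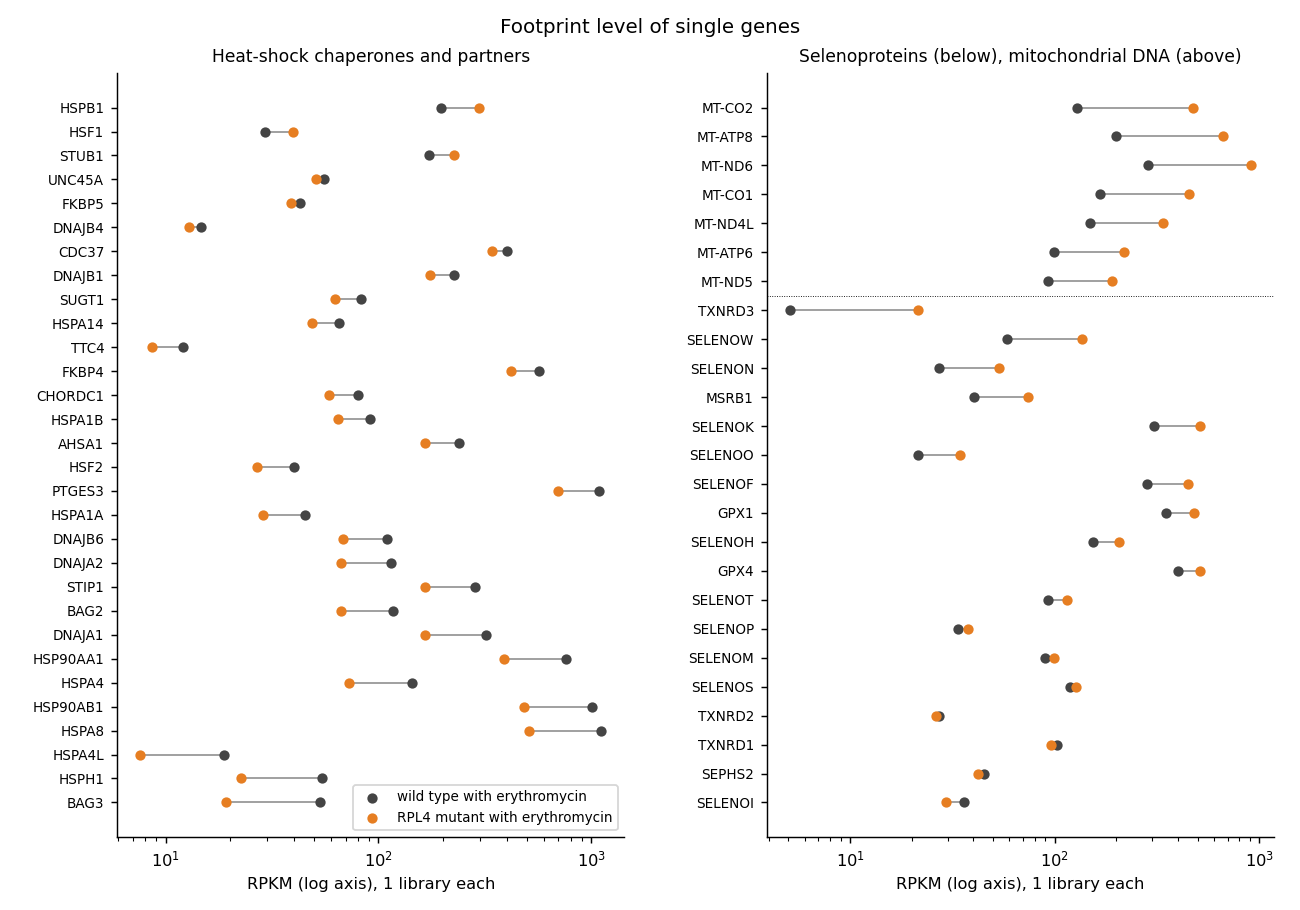
RPKM (log axis) of single genes in the wild type (grey) and RPL4 mutant (orange) libraries with erythromycin, 1 library each: heat-shock chaperones and partners on the left, 7 mitochondrially encoded genes above the dotted line and 18 selenoproteins below it on the right. In 27 of 30 heat-shock rows the log2 ratio was below 0, and in 7 of 7 mitochondrial rows the mutant was to the right.

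Promoters of this list are shown because HSF1 is known to bind inverted repeats of GAA upstream of its targets. The pattern of GAA, 2 bases of any kind, TTC, 2 bases of any kind, GAA was sought on both strands in the 250 bases before the RefSeq start (GRCh38.p14). It was present in 4 of 26 matched members (15.4%), in 0.227% of 7935 promoters of tested genes and in 0.441% of 35116 RefSeq promoters. The 4 members were HSPA8, HSP90AB1, DNAJB6, a J-domain protein that keeps aggregating proteins soluble, and CHORDC1, an HSP90 partner. The promoters lie at chr11:123062137-123062386 (minus strand), chr6:44247693-44247942 (plus strand), chr7:157336754-157337003 (plus strand) and chr11:90223050-90223299 (minus strand) in that order, and capitals mark bases inside a match, with overlapping matches joined.
HSPA8: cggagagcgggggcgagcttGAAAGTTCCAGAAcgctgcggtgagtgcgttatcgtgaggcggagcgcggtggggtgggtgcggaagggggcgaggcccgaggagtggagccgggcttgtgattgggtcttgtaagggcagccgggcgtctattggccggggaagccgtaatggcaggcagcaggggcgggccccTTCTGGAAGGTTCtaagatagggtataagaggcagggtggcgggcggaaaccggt
HSP90AB1: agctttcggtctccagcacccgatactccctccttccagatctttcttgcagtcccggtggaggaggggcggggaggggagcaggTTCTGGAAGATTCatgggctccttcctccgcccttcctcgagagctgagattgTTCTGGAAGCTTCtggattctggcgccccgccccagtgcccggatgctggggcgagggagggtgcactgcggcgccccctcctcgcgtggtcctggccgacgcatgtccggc
DNAJB6: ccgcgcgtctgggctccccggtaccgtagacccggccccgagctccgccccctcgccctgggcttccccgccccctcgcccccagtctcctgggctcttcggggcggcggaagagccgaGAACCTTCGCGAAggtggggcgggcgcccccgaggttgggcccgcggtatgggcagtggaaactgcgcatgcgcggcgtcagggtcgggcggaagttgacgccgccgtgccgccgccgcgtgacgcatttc
CHORDC1: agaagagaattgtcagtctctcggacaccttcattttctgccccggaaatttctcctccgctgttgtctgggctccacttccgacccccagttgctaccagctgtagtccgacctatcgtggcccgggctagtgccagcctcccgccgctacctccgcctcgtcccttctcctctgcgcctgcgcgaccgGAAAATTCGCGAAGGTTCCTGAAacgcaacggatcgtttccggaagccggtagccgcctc
With erythromycin, HSPA8 and HSP90AB1, with 26 marked bases each, had log2 ratios of −1.19 and −1.12, while CHORDC1, with 23, was at 79.9 and 58.4 RPKM (−0.51) and DNAJB6, with 13, at 109.8 and 68.1 RPKM (−0.74). BAG3, the lowest member, is not among those with a match in this window. A match is a stretch of letters, and binding was not measured.

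Folding machines that work downstream of the ribosome were split. The chaperonin TRiC is a double ring that folds actin and tubulin, and prefoldin hands it clients. Against genes of like RPKM, 10 of the 16 genes of this list were below 0, with a median of −0.31 in place of −0.47. All 8 ring subunits were below 0, from CCT4 (548 and 291 RPKM, −0.97) and CCT8 (295 and 164 RPKM, −0.90) to CCT6A (396 and 324 RPKM, −0.35), and 7 of them were at least 1.5-fold lower. The 6 prefoldin subunits spanned −0.41 for PFDN6 (310 and 243 RPKM) to 0.05 for PFDN1 (197 and 213 RPKM), with 0 at least 1.5-fold lower. URI1, a prefoldin-like protein, was on the other side (27.0 and 43.8 RPKM, 0.62). This split was made after the values were seen, and the groups also differ in median coding length, 1629 bases against 438, whose part in it was not tested. The proteasome, which degrades ubiquitinated proteins, gave a median of −0.46, or −0.27 against genes of like RPKM, with 35 of 37 members below 0, 11 at least 1.5-fold lower and 0 higher. Its regulatory particle subunits (17, symbols PSMC and PSMD) had a median of −0.59, and its core subunits (13, PSMA and PSMB) a median of −0.32, again a split made after seeing the values. Against genes of like RPKM these medians were −0.28 and −0.05. Median coding length differed here too, 1269 bases against 759, and its part was not tested. PSMD12 was lowest (223 and 129 RPKM, −0.84), PSMB3 and PSMB1 most read (1304 and 992 RPKM, −0.46 and 1206 and 916 RPKM, −0.46), and the assembly factor PSMG3 highest (136 and 180 RPKM, 0.34). Nascent-chain factors, signal recognition and translocation genes had a median of −0.26, with 32 of 47 below 0, and lay at 0.04 against genes of like RPKM and GC content. BTF3 of the nascent-polypeptide-associated complex was at 1553 and 1094 RPKM, −0.57, while SRP14 of the signal recognition particle was at 1013 and 1550.3 RPKM, 0.55.

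The lists around tubulin and actin, the main clients of that chaperonin, were mixed but leaned lower. TUBB, a β-tubulin, was at 2261 and 1358 RPKM, −0.80 and TUBB4B at 1030 and 667 RPKM, −0.69, while STMN1, which sequesters tubulin dimers, was at 1383 and 1072 RPKM, −0.43. Of 18 tubulin and microtubule folding genes 14 were below 0, with a median of −0.42 and of −0.29 against genes of like RPKM. ACTB was at 3743 and 2941 RPKM, −0.41, and the actin list of 38 had a median of −0.29 with 28 below 0. Against genes of like RPKM the actin median was −0.12, with 23 of 38 below 0, and with GC matched too it was −0.07. PFN1, which loads actin with ATP, was at 4869 and 5366 RPKM, 0.08, TMSB4X, which binds actin monomers, at 4864 and 4332 RPKM, −0.23, and TMSB10 at 3991 and 3743 RPKM, −0.16. MYL12B, a myosin light chain, was lowest of the list (495 and 279 RPKM, −0.89) and ARPC4 of the Arp2/3 complex highest (36.1 and 58.9 RPKM, 0.63).

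Genes of RNA processing and of cell division were lower by a similar amount. Spliceosome, SR and hnRNP proteins (50 tested) had a median of −0.51, or −0.34 against genes of like RPKM, with 48 below 0, 20 at least 1.5-fold lower and 0 higher. HNRNPK, which binds C-rich RNA, was at 977 and 488 RPKM, −1.06 [−1.18, −0.94]. SNRPD2, a core Sm protein, was at 2659 and 2473 RPKM, −0.17 and HNRNPA2B1 at 1989.6 and 1352 RPKM, −0.62, and SNRNP70 of the U1 particle was the highest member (194 and 254 RPKM, 0.33). SSB, an RNA-binding protein outside this list that was among the 10 lowest well read genes, was at 306 and 155 RPKM, −1.04. In the G2 and mitosis list (36 tested) 33 were below 0, 14 at least 1.5-fold lower and 0 higher, with a median of −0.50. The phosphatase CDC25C, which releases cells into mitosis, was at 40.7 and 14.2 RPKM, −1.52 [−2.34, −0.91]. The spindle checkpoint kinase TTK, named after its value was seen, was at 37.4 and 13.7 RPKM, −1.45. Among the most read members CKS2 was at 1006 and 713 RPKM, −0.56, UBE2S, which extends ubiquitin chains for the anaphase-promoting complex, at 1122 and 1091 RPKM, −0.10 and BIRC5 (survivin) at 684 and 627 RPKM, −0.19. Their coding sequences are poor in GC (median 44.8% against 52.2% of all tested genes), and against genes of like RPKM and GC the median was −0.17. HASPIN, a mitotic kinase of histone H3, was the third lowest of the well read genes, with 89.6 and 91.1 RPKM without and 440.1 and 136 with erythromycin, −1.74 [−1.92, −1.59]. The high value was that of wild type with the drug, the other 3 libraries lying between 89.6 and 136 RPKM. DNA replication genes (47 tested) were spread on both sides, with 30 below 0 and a median of −0.23. PRIM2, the large primase subunit, was at 38.6 and 20.4 RPKM, −0.95 and its partner PRIM1 at 26.6 and 72.5 RPKM, 1.35, while TYMS, which makes thymidylate, was at 732 and 642 RPKM, −0.25. Replication-dependent histones (55 tested) had 6 members at least 1.5-fold lower, close to the share of all genes, and a median of −0.17 that turned to 0.04 against genes of like RPKM. HIST1H4C and HIST1H3B were at 10391 and 10185 RPKM, −0.09 and 10084 and 8189.8 RPKM, −0.36. Histone genes are near-identical within a class, and the division of their reads is uncertain.

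Glycolytic enzymes were mostly lower. All 16 had a log2 ratio below 0, with a median of −0.44, 7 at least 1.5-fold lower and 0 higher, and 13 of them stayed below 0 against genes of like RPKM (median −0.36). ENO1, the main enolase, was at 4497 and 2302 RPKM, −1.03 [−1.09, −0.97]. PKM (pyruvate kinase) was at 1270.2 and 731 RPKM, −0.86, LDHB (lactate dehydrogenase B) at 1742 and 1044 RPKM, −0.80 and PGK1 at 615 and 393 RPKM, −0.71. GAPDH was at 5945 and 4916 RPKM, −0.34, TPI1 at 2259 and 2054 RPKM, −0.20 and PGAM1 at 606 and 599 RPKM, −0.08 [−0.24, 0.08]. The interval of PGAM1 takes in 0 and does not overlap that of ENO1, the next step. Enzymes of the tricarboxylic acid cycle were closer to the median gene (−0.18, 13 of 18 below 0, 2 at least 1.5-fold lower). Citrate synthase (CS) was at 314 and 221 RPKM, −0.57 and MDH2 at 732 and 528 RPKM, −0.53.

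Genes of mitochondrial DNA stood on the opposite side from the chaperones. Of the 13 protein genes of the mitochondrial genome, 7 were tested and the other 6 were not analysed here. All 7 were at least 1.5-fold higher in the mutant with erythromycin and 6 at least 2-fold higher, with a median log2 ratio of 1.38. MT-CO2, a subunit of cytochrome c oxidase, read 314 and 426 RPKM in wild type and mutant without erythromycin and 128 and 477 with it, 1.82 [1.58, 2.09]. MT-CO1, the catalytic subunit of the same enzyme, read 331 and 588 RPKM without and 166 and 454 with it, 1.38 [1.23, 1.54]. For both genes wild type with erythromycin was the lowest of the 4 libraries. MT-ATP8 and MT-ATP6 of ATP synthase, whose reading frames overlap, were at 200.4 and 666 RPKM, 1.67 and 98.8 and 217 RPKM, 1.07. MT-ND6, MT-ND5 and MT-ND4L of complex I were at 285 and 911 RPKM, 1.61, 93.3 and 191 RPKM, 0.96 and 149 and 339 RPKM, 1.12. MT-ND6 and MT-ND5 lie next to each other on opposite strands, and it is not given whether reads were counted by strand. The 7 genes took 0.0816% of wild type and 0.224% of mutant reads with erythromycin, and 0.144% and 0.229% without it. The share was thus alike in both mutant libraries and differed between the wild type ones. Nuclear copies of mitochondrial DNA can share these reads.

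Nuclear genes for mitochondrial proteins did not follow either side. The 72 nuclear-encoded respiratory chain and ATP synthase subunits had a median of −0.07, with 44 below 0, 2 at least 1.5-fold lower and 5 higher, and lay at 0.12 against genes of like RPKM. COX7C was at 2857 and 2689 RPKM, −0.15 and NDUFA1 at 2008 and 2689 RPKM, 0.36, and NDUFA3 of complex I was the highest member (579 and 1326 RPKM, 1.13). Mitochondrial ribosomal proteins (76 tested) had a median of −0.09, or 0.07 against genes of like RPKM, with 7 at least 1.5-fold lower and 3 higher. MRPL35 was far from the others, at 294 and 2115 RPKM without and 489 and 2452 with erythromycin. The list of mitochondrial import factors, chaperones and proteases (39 tested) was divided, with 21 below 0 and a median of −0.15 that turned to 0.05 against genes of like RPKM. HSPD1 (HSP60) was at 623 and 364 RPKM, −0.84 and its partner HSPE1 at 738 and 394 RPKM, −0.97, with HSPA9, the mitochondrial HSP70, at 269.9 and 164 RPKM, −0.77, all 3 being named after their values were seen. Within the same list CHCHD4, the oxidoreductase of the intermembrane space, was lowest (29.3 and 15.1 RPKM, −0.98) and TIMM13, an import chaperone of that space, was at 986 and 1122 RPKM, 0.12.

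Selenoproteins, whose mRNAs are read through a UGA codon as selenocysteine, were mostly higher in the mutant. Of 18 tested 14 were above 0, 7 were at least 1.5-fold higher and 0 lower, with a median of 0.32. Against genes of like RPKM the median was 0.51, and with GC content matched too it was 0.36. SELENOW was at 58.6 and 136 RPKM, 1.13 [0.46, 1.84], SELENOK at 308 and 512 RPKM, 0.67 [0.36, 0.98] and SELENOF at 283 and 447 RPKM, 0.59 [0.35, 0.84]. The glutathione peroxidases GPX1 and GPX4 were at 352 and 482 RPKM, 0.39 and 403 and 511 RPKM, 0.28, and SELENOI was lowest (36.0 and 29.5 RPKM, −0.34). SELENOF and the following members were named after their values were seen. TXNRD1, the cytosolic thioredoxin reductase, was at 102 and 95.5 RPKM, −0.16 and SEPHS2, which makes the selenium donor, at 45.3 and 42.3 RPKM, −0.16. TXNRD3 had the highest log2 ratio (1.82) but only 5.06 and 21.4 RPKM. Without erythromycin 12 of the 18 were above 0 and the median was 0.28, with SELENOW at −0.15.

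Other stress pathways had medians nearer 0 than the heat-shock list. ATF4, the transcription factor after which its list is called, was at 208 and 237 RPKM, 0.13. Of 30 genes of its pathway 22 were below 0 and 6 at least 1.5-fold lower, with a median of −0.26, or −0.26 also without NUPR1, which had no reads in the mutant. The pseudokinase TRIB3 (37.8 and 18.3 RPKM, −1.08) and the most read members EIF4EBP1 (333 and 392 RPKM, 0.17), PHGDH (311 and 224 RPKM, −0.54) and MTHFD2 (241 and 301 RPKM, 0.26) show the spread, with PYCR1, an enzyme of proline synthesis, highest (42.1 and 75.4 RPKM, 0.76). Endoplasmic reticulum folding genes had 18 of 34 below 0 and a median of −0.07, against 0.21 without the drug. CALR, a lectin chaperone, was at 614 and 502 RPKM, −0.35 with and at 0.39 without erythromycin, PPIB at 402 and 484 RPKM, 0.21 and DERL1, lowest of the list, at 82.8 and 49.3 RPKM, −0.80. In the antioxidant and NRF2 list 22 of 28 were below 0, 6 at least 1.5-fold lower and 0 higher, with a median of −0.16 that became −0.04 against genes of like RPKM and 0.05 with GC matched too. It ran from HMOX1, heme oxygenase (175 and 94.0 RPKM, −0.95), to SRXN1 (41.6 and 65.6 RPKM, 0.58), with TXN at 3397 and 2880.5 RPKM, −0.30. SQSTM1, the autophagy receptor p62, was the lowest of 49 lysosome and autophagy genes (326 and 149.9 RPKM, −1.18 [−1.41, −0.96]), whose median was −0.05. Immediate early and inflammatory genes had 7 of 30 at least 1.5-fold lower and 3 higher. GADD45B, a growth arrest protein, was the lowest of them (177 and 58.8 RPKM, −1.64 [−2.24, −1.11]), JUN was at 175 and 134 RPKM, −0.44, BTG1 at 146 and 142 RPKM, −0.10 and IL1A highest (15.8 and 109 RPKM, 2.64). Sterol and fatty acid synthesis genes centred on 0.01, with SREBF2, their master regulator, at 18.3 and 49.1 RPKM, 1.31 [1.04, 1.68], and INSIG1, which retains that regulator in the endoplasmic reticulum, at 281 and 413 RPKM, 0.49. Targets of p53 (24 tested) also centred on 0.01. Interferon-stimulated genes were thinly read. Of 16, 5 were at least 2-fold lower and 1 at least 2-fold higher, against 2.26% and 7.02% of all genes. Without the drug 3 of them were at least 2-fold lower and 4 at least 2-fold higher, against 3.32% and 5.29%. ZNFX1 is described further on, and SAMD9, a restriction factor, was highest (7.71 and 42.0 RPKM, 2.24 [2.02, 2.75]). Hypoxia targets (21 tested) ran from ADM, the peptide adrenomedullin (45.6 and 12.6 RPKM, −1.84 [−3.28, −0.79]), to ANKRD37, with VEGFA, the angiogenic growth factor, at 19.3 and 36.6 RPKM, 0.83, chosen after its value was seen.

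Single genes with the largest ratios lay mostly outside these lists and mostly on the higher side. USP7, a deubiquitinase (chromosome 16, 8892094 to 8964514, coding length 3309 bases), read 97.5 and 973 RPKM in wild type and mutant without erythromycin and 131 and 2549 with it. With the drug that was 1109 and 8379 reads and 4.21 [4.13, 4.31], and in the mutant USP7 was the second most read gene after EEF1A1. ST7, a candidate tumour suppressor (chromosome 7, 116953238 to 117230103), read 19.8 and 283 RPKM without and 60.5 and 1007 with erythromycin, 3.97 [3.81, 4.18]. In both genes the 2 mutant libraries were above the 2 wild type ones. GSDMB, a gasdermin (chromosome 17, 39904595 to 39919854), read 140.4 and 163 RPKM without and 113 and 1365 with the drug, so that 1 library of 4 was high (3.52 [3.36, 3.70]). ANKRD37, a hypoxia-inducible ankyrin protein, read 471 and 535 RPKM without and 114 and 794 with it, where wild type with erythromycin was the low library.

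The other genes with the largest ratios on the higher side were of many kinds. GDF2 (BMP9, a liver growth factor) was at 33.4 and 559 RPKM, 3.97 [3.71, 4.31], DEFB118 (a defensin of the epididymis) at 42.1 and 525 RPKM, 3.55 [3.08, 4.11] and C3 (complement) at 4.39 and 68.8 RPKM, 3.63 [3.50, 4.34]. OVCH2, RERGL and MROH9 were at 67.5 and 669 RPKM, 3.23, 154 and 1901 RPKM, 3.56 and 360.4 and 2372 RPKM, 2.65, and DAB2IP, a RAS GTPase-activating protein, at 62.7 and 689.9 RPKM, 3.38. Zinc finger genes ZNF117 and ZNF462 were at 5.12 and 173 RPKM, 4.77 [4.35, 5.77] and 11.7 and 201 RPKM, 3.93 [3.83, 4.25], LGALS4, a galectin of the gut, at 1.61 and 65.2 RPKM, 4.60, ARHGAP36 at 0.952 and 50.8 RPKM, 4.67 and SLC13A4, a sulfate carrier, at 4.99 and 83.5 RPKM, 3.75. SERPINB10, a protease inhibitor, had 0 reads in wild type and 186 in the mutant with erythromycin. Against 3 reads, an approximate bound for a count of 0, the 186 reads taken as they stand are 159-fold higher without centring. That figure leaves out the counting error of the 186 reads. The lower bound of the centred log2 interval, which takes in the error of both counts, is 6.94. The pair without the drug held 2 reads and 1 read. Of 100 olfactory receptor genes listed in the files 6 were tested, and 4 of those were at least 2-fold higher, against 7.02% of all genes. Without erythromycin 5 of the 6 were at least 2-fold higher. The 6 are those whose reads passed the filter, and with no filter the list's median was 0.84 in place of 1.90. OR4D2 was at 493 and 2940.2 RPKM, 2.51 and OR4K15 at 455 and 2541 RPKM, 2.42. Zinc finger and olfactory receptor genes have close relatives, and how shared reads were divided is not given. A value per transcript does not show whether footprints spread along a coding sequence or pile on 1 place, and neither reading frame nor position was tested.

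On the lower side the extremes were fewer. DUXAP10, a transcribed pseudogene (chromosome 14, 19268853 to 19337730), read 1448 and 18121 RPKM in wild type and mutant without erythromycin and 2836 and 90.6 with it, −5.01 [−5.43, −4.65] with the drug and 3.67 [3.61, 3.74] without. ZNFX1, an RNA helicase of innate immunity (chromosome 20, 49237946 to 49278426), read 459 and 1727 RPKM without and 404 and 48.8 with it, −3.09 [−3.29, −2.94] and 1.93 [1.89, 1.99]. In both genes the mutant was the lowest library with the drug and the highest without it. DUXAP10 belongs to a family of near-identical copies, so its reads are uncertain. ANXA1 (annexin A1) was at 82.7 and 26.1 RPKM, −1.69 [−2.36, −1.15], BAIAP2, a membrane-bending adaptor, at 60.5 and 20.0 RPKM, −1.61 [−2.23, −1.13], and HIST1H3I, with 100 and 4 reads, at 95.2 and 9.80 RPKM, −3.22. NAP1L2, a histone chaperone, read 88.5 and 139.9 RPKM without and 336 and 167 with erythromycin, so that wild type with the drug was highest.

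The pair without erythromycin shares no library with the pair above, and its genotype difference was related but not the same. In it the mutant was above wild type by 2-fold or more in 508 genes (5.29%) and below it by as much in 319 (3.32%). Across the 9612 genes, which are not independent replicates, the 2 log2 ratios had a Pearson correlation of 0.31 and a Spearman correlation of 0.25, and 59.3% of genes lay on the same side in both. Both ratios set a shallow mutant library against a deeper wild type one, and gene length and base composition are common to them. Among the 945 genes of at least 200 RPKM the values were 0.57, 0.38 and 75.3%. Of the 675 genes at least 2-fold higher with erythromycin, 508 (75.3%) were above 0 without it and 214 (31.7%) again at least 2-fold higher, while 28 were at least 2-fold lower there. Of the 217 lower genes, 108 (49.8%) were below 0 without it and 16 (7.37%) again at least 2-fold lower, while 20 were at least 2-fold higher there. As shares of the genes called without the drug, the 214 and the 16 were 42.1% of the higher and 5.02% of the lower ones. Among the lists, heat-shock genes (−0.61 with and −0.31 without), spliceosome genes (−0.51 and −0.19), G2 and mitosis genes (−0.50 and −0.16) and glycolytic enzymes (−0.44 and −0.26) were below 0 in both pairs. Well read genes in general were lower in both. Against genes of like RPKM, the medians without the drug were −0.19, −0.03, −0.11 and −0.12 in the same order. With the drug they were −0.53, −0.34, −0.34 and −0.36. Whether these medians differ between the pairs was not tested.

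**Figure D4:**
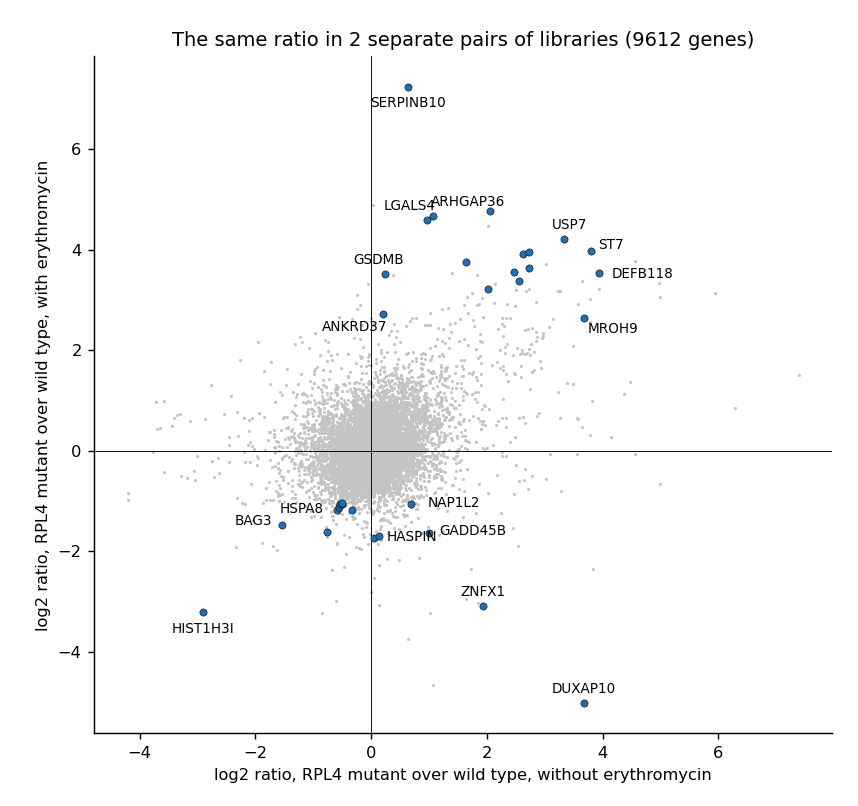
Log2 ratio of mutant over wild type with erythromycin (vertical axis) against the same ratio without it (horizontal axis) for 9612 genes (grey), with the genes of largest ratio with the drug in blue. USP7, ST7 and DEFB118 are high in both pairs, GSDMB and ANKRD37 with erythromycin alone, and DUXAP10 and ZNFX1 lie on opposite sides.

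The ratio also followed properties of the genes. With the tested genes cut into 5 equal groups by mean RPKM, the median log2 ratio went from 0.29 in the least read to −0.18 in the most read with erythromycin, and from 0.14 to −0.13 without it. Over 5 groups by GC content of the coding sequence it went from −0.16 in the poorest, at most 43.9% GC, to 0.24 in the richest, at least 60.8% GC, with erythromycin. Without the drug those medians were −0.03 and 0.10. Set against genes of like RPKM the GC steps stayed, at −0.20 and 0.22. By coding length the medians were −0.08 for the shortest and 0.13 for the longest group, but 0.06 and −0.01 against genes of like RPKM. By share of proline codons they were −0.11 and 0.12, and −0.06 and 0.10 against genes of like RPKM. Base composition and codon shares go with one another, and their separate parts were not tested. The 675 higher genes had a median GC content of 58.3% and the 217 lower genes one of 50.1%. Nuclear chromosomes differed little, with medians from −0.12 on chromosome 5 to 0.13 on chromosome 16.

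**Figure D5:**
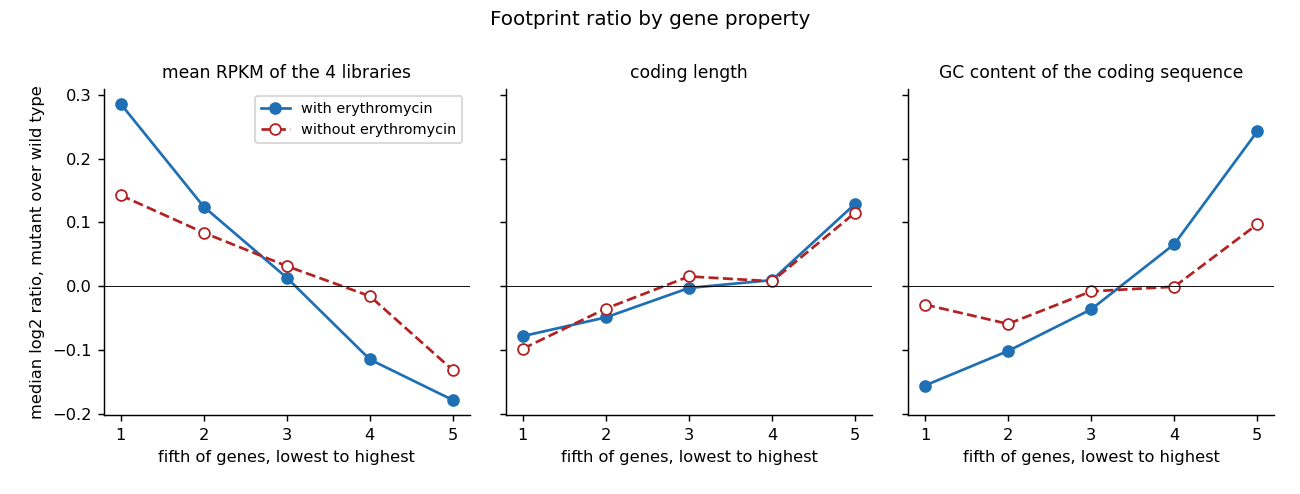
Median log2 ratio of mutant over wild type in 5 equal groups of genes ordered by mean RPKM, coding length and GC content of the coding sequence, with erythromycin (filled, solid) and without (open, dashed). With erythromycin the median ran from 0.29 to −0.18 over RPKM and from −0.16 to 0.24 over GC content.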

How the data were processed

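Ribosome-protected RNA of 4 HEK293 libraries was used, 1 per group, grouped by the titles of the samples. The authors deposited RPKM per transcript, reads scaled to transcript length and library size. Cutadapt, STAR and the build GRCh38 are listed, without versions, per the submitters' processing notes, and the read counter is not given in the sources used here. Of 16292 transcripts, 16172 matched GENCODE release 29. RPKM times coding length gave whole reads within 0.001 for 99.2% of matched transcripts, which yields library totals and counting intervals (95%, exact, conditional on the sum). For 243 transcripts where the annotation did not give whole reads, the smallest length that did so in every library listing them was used. Reads and intervals of those transcripts rest on that length. These cover counting error only.

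Ratios used a pseudocount of 1 RPKM, a minimum mean of 5 RPKM over 4 libraries and centring on the median gene (Python 3.11.15, pandas 2.3.3, SciPy 1.17.1). The intervals were tried on simulated counts that held counting error only, which cannot show how they fare with variation between libraries. No p is given, since each group had 1 library. Matched values subtract the median of 20 groups by mean RPKM, or of 10 by 10 groups by RPKM and GC. Genes named are RPL4, the 10 highest and lowest by interval bound (mean of at least 20 RPKM) and by ratio (at least 200 RPKM), the 10 most read of each library, and per list the 3 most read, the highest and the lowest, or any member of lists up to 20. Others are marked, and so are splits made later. The comparison, its 44 lists and these rules were chosen with earlier results of these data known. Sequences are from RefSeq. Protein sequence was not used here, and a few genes that the rule names are not reported here. Alternatives changed the pseudocount, filters and centring.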

Additional observations from a re-analysis of the deposited data

Results flagged for a closer look

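A small number of named genes or list members were 1.5-fold or more apart in both pairs of libraries, with and without erythromycin, but in opposite directions. Their counting intervals lay off 0 in both pairs. Other named genes changed side by less, such as HASPIN at −1.74 with the drug and 0.05 without. With 1 library in each group the difference between the pairs was not tested. DUXAP10 was at −5.01 with the drug and 3.67 without, and ZNFX1 at −3.09 and 1.93. GADD45B was at −1.64 and 1.00, from 240 and 31 reads with and 49 and 20 reads without the drug, and NAP1L2 at −1.06 and 0.68. The zinc finger gene ZNF706 was at −0.87 and 0.62, and the complex I gene MT-ND4L at 1.12 and −1.04, the latter from 113 and 100 reads with and 278 and 27 without.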

How the results depend on the processing

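The count of genes at least 2-fold apart moved with the filter and the pseudocount. Against 675 higher and 217 lower, a pseudocount of 5 RPKM gave 357 and 100, a minimum mean of 1 RPKM 1184 and 487, one of 20 RPKM 263 and 47, and no filter 1477 and 734. A minimum of 20 reads at the depth of the shallower library gave 139 lower. In each of these the higher genes outnumbered the lower ones. The minimum of 20 RPKM moved the ratio of all genes by 0.11. Centring within groups of like RPKM took the higher genes from 75.7% to 65.5% of the total, and groups of like RPKM and GC, added after seeing the data, to 62.9%. Of 520 recomputed medians of 40 lists, 477 stayed within the 95% order-statistic interval of the reported median over its members, used only as a yardstick. In 32, from 15 lists, the sign changed, and 26 of those were of lists whose interval took in 0 at the start. The other 6 were mitochondrial ribosomal proteins at 0.018 with the minimum of 20 RPKM, 0.071 with RPKM groups and 0.015 with RPKM and GC groups, histones at 0.040 with RPKM groups, and, with RPKM and GC groups, nascent-chain factors at 0.037 and NRF2 targets at 0.047. Of 595 values of 46 named genes 0 changed sign. Of these values 461 stayed within the counting interval, widened where needed to take in the reported ratio, and 134 moved out of it. A pseudocount of 5 RPKM took ARHGAP36 from 4.67 to 3.18 and LGALS4 from 4.60 to 3.36, each with 4 wild type reads with erythromycin. USP7 stayed at 4.18 under that setting. RPL4 stayed between −0.99 and −0.63 over all settings. No paired analysis was possible because each group had 1 library and no label links libraries across groups. Depth limits the mutant values most, as 3 reads on 1 kb equal 3.02 RPKM there and 1.17 in wild type.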

Other observations

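Of the genes tested, 5625 read at 20 RPKM or more on average with erythromycin. Among these, 37 were 1.5-fold or more apart in both pairs of libraries but in opposite directions, with counting intervals off 0. The number as far apart in the same direction is not given here. The 37 include DUXAP10, ZNFX1, GADD45B, NAP1L2, ZNF706 and MT-ND4L, given above. The other genes below were picked from their values and were not tested. PAFAH1B3, a subunit of a lipid hydrolase, was at 894 and 530 RPKM in wild type and mutant without the drug and at 445 and 1257 with it. CREG2, a secreted brain glycoprotein, was at 967 and 415 RPKM without and 484 and 2262 with it. USP1, a deubiquitinase of DNA repair, was at 686 and 186 RPKM without and 187 and 314 with it, so that wild type without erythromycin was the high library.

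Zinc finger genes as a class (213 tested of 475 listed) had a median log2 ratio of 0.17 with erythromycin, with 50 at least 1.5-fold higher and 22 lower, against 16.8% and 11.3% of all genes. Against genes of like RPKM the median was 0.02. ZNF107 was at 616 and 3608 RPKM without and 471 and 1884 with the drug. It was among the 10 most read genes of the mutant library with erythromycin, as were DBP, a circadian transcription factor, and ACIN1. DBP was at 25.5 and 4359 RPKM without and 1894 and 5624 with the drug, so that wild type without erythromycin was the low library. ACIN1 was at 400 and 2601 RPKM without and 268 and 1141 with it. Solute carriers (155 tested) lay at 0.06 and extracellular matrix and adhesion genes (26 tested) at 0.13, both turning to −0.04 against genes of like RPKM.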
